A study of Arabidopsis thaliana with 8 samples.

Results

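ASL5 (Asymmetric Leaves2-like 5, also LBD12, AT2G30130) and 8 further genes of the Lateral Organ Boundaries Domain (LBD) family, LBD1 (AT1G07900), LBD3 (AT1G16530), LBD4 (AT1G31320), LBD11 (AT2G28500), LBD15 (AT2G40470), LBD16 (AT2G42430), LBD18 (AT2G45420) and LBD29 (AT3G58190), were followed in Arabidopsis thaliana embryos. The 9 genes were picked by their gene code from the 24648 genes on the arrays, and each had 1 reporter (array probe). They were picked with the response of ASL5 to the bdl cross already known, so their differences between the crosses are given as values with no test.

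RNA of embryos from the cross Q0990 x bdl was hybridised together with RNA of embryos from the cross Q0990 x Col-0, on 4 arrays at day 6 and on 4 arrays at day 3 after pollination. Q0990 was the seed parent of both crosses, so all embryos carried it, and the labels give the Col-0 ecotype for both. Q0990 is known as a GAL4 enhancer trap line that is active in provascular cells of the embryo. The bdl allele is known to encode a stabilised form of the auxin response repressor BODENLOS (BDL, IAA12), which binds the auxin response factor MONOPTEROS (ARF5). The labels name the 2 parents of each cross and no construct, and they call the tissue isolated embryos without saying how many were pooled.

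LBD proteins are plant transcription factors that share an N-terminal LOB domain with a cysteine motif. Most belong to class I, whose members are known for roles at organ boundaries, in lateral root formation and in vascular tissue, and a smaller class II is known for roles in nitrogen and anthocyanin metabolism. Several class I genes are induced through auxin response factors, and Aux/IAA proteins such as BDL repress those factors until auxin triggers their breakdown.

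The bdl cross could be seen in the BDL transcript, which was measured by 3 reporters. The log2 ratio of Q0990 x bdl relative to Q0990 x Col-0 lay between 0.92 and 1.14 on the 4 arrays of day 6 (adjusted p = 1.42e-05, limma) and between 0.74 and 0.96 on the 4 arrays of day 3 (adjusted p = 2.67e-05). All 3 reporters were higher in Q0990 x bdl on 4 of 4 arrays of each day, by mean log2 ratios of the deposited intensities from 0.71 to 1.46 on day 6 and from 0.23 to 1.37 on day 3.

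On day 6 a channel had a median intensity of 225 to 451, with values for 26041 or 26042 gene spots, and on day 3 a median of 336 to 524, with values for 22325 gene spots. Each array also carried 1743 blank spots. Their 95th percentile per channel and array, from 68.4 to 366 on day 6 and from 27.4 to 87.5 on day 3, served as the level above which a reporter counted as measured. A gene entered the tests if it was above the blank spots in at least 4 of the 16 signals (8 arrays, 2 channels). That kept 6 of the 9 genes, namely ASL5, LBD1, LBD3, LBD4, LBD15 and LBD18. LBD11, LBD16 and LBD29 were not kept.

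Markers of embryo, endosperm and seed coat differed between the crosses mainly on day 3. On day 6, where 16.2% of all genes were called higher and 19.4% lower, among embryo markers tested 4 of 11 were higher and 2 lower in Q0990 x bdl, among endosperm markers 3 of 9 were higher (median log2 0.014), and among seed coat markers 2 of 14 were higher and 3 lower (median log2 0.0080). On day 3, where 21.1% of all genes were called higher and 21.0% lower, 9 of 10 embryo markers were lower in Q0990 x bdl (median log2 -0.67), 9 of 10 endosperm markers were higher (median 0.68) and 9 of 14 seed coat markers were higher (median 0.50). The summed intensity of the 10 embryo markers with values on both days was 33347 to 74385 in Q0990 x bdl and 28598 to 63543 in Q0990 x Col-0 on day 6. On day 3 it was 43721 to 64852 in Q0990 x bdl and 75306 to 96773 in Q0990 x Col-0. The sum of 14 seed coat markers was 8573 to 26757 in Q0990 x bdl and 7713 to 21814 in Q0990 x Col-0 on day 6. On day 3 it was 82891 to 162333 in Q0990 x bdl and 62335 to 96753 in Q0990 x Col-0. Transcripts of seed coat marker genes were thus present in the samples labelled embryo on both days. Which tissue they came from was not tested. The sum of 9 endosperm markers was 1490 to 8373 in Q0990 x bdl and 1306 to 7066 in Q0990 x Col-0 on day 6. On day 3 it was 18296 to 39214 in Q0990 x bdl and 9684 to 22047 in Q0990 x Col-0. The embryo marker WOX2, the endosperm markers FIS2 and AGL36 and the seed coat marker TT16 were below the blank spots on every Q0990 x Col-0 signal of day 6. The part of these differences in the LBD results was not tested. In such bulk samples, fewer cells of a type and less RNA per cell cannot be told apart.

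ASL5 was the family member with the lowest ratio on both days. On day 6 its deposited intensities were 79.4, 126, 204 and 187 in Q0990 x bdl, against 263, 1096, 1632 and 1475 in Q0990 x Col-0 on the same arrays. On day 3 they were 125, 212, 231 and 217 in Q0990 x bdl, against 724, 2070.5, 1550 and 1566 in Q0990 x Col-0. On every array the Q0990 x bdl signal was the lower one, and within each day the highest Q0990 x bdl value lay below the lowest Q0990 x Col-0 value. The ratio of the 2 intensities, Q0990 x Col-0 over Q0990 x bdl, ran from 3.31 to 8.69 on day 6 and from 5.79 to 9.77 on day 3.

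**Figure D1:**
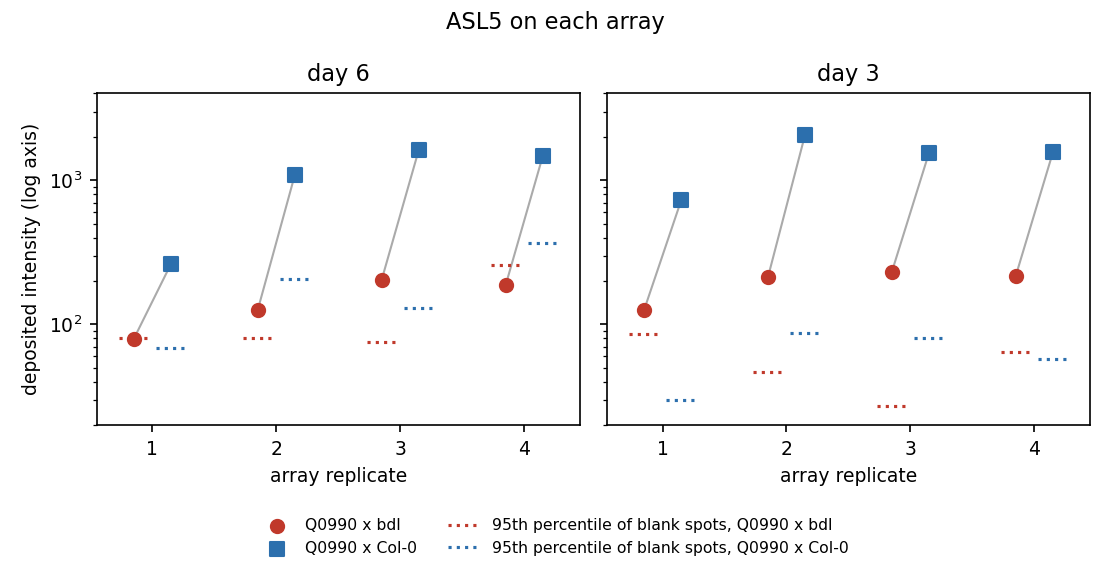
Deposited intensity of ASL5 on each of the 4 arrays of day 6 (left) and day 3 (right), on a log axis, with Q0990 x bdl as circles, Q0990 x Col-0 as squares and a grey line joining the channels of 1 array. Dotted marks show the level exceeded by 5% of a channel's blank spots; the Q0990 x bdl signal exceeds it on day 6 replicates 2 and 3 and on all 4 day 3 arrays, and the Q0990 x Col-0 signal exceeds it on all 8 arrays.

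After normalisation the log2 ratios of ASL5 were -1.28, -2.71, -2.74 and -2.70 on the day 6 arrays and -2.15, -3.01, -2.51 and -2.59 on the day 3 arrays. Day 6 replicate 1 stood apart from the other 3 arrays of its day, with the smallest ratio and the weakest signal in both channels. The mean log2 ratio was -2.36 ± 0.72 on day 6 and -2.56 ± 0.35 on day 3 (SD, n = 4 arrays each), or a level 5.13-fold and 5.92-fold lower in Q0990 x bdl. Without day 6 replicate 1 the day 6 value was -2.72. Day 6 minus day 3, the difference was 0.21 with a 95% interval from -0.54 to 0.95, so an unequal ratio on the 2 days was not detectable with these arrays. Ordered from the lowest, ASL5 ranked 5 of 19474 genes tested on day 6 and 1 of 19095 on day 3.

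The Q0990 x bdl signal of ASL5 was not far above the blank spots. It exceeded their 95th percentile on 2 of 4 arrays of day 6 and on 4 of 4 of day 3, whereas the Q0990 x Col-0 signal exceeded it on all 8 arrays. The offset of 50 added to every intensity before the logarithm shortens ratios that involve such dim signals. With an offset of 16 the log2 ratio was -2.58 on day 6 and -2.75 on day 3.

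The normalised log2 signal of ASL5, which puts all 16 signals on one scale, averaged 7.72 ± 0.68 in Q0990 x bdl and 10.08 ± 1.39 in Q0990 x Col-0 on day 6, and 7.85 ± 0.29 in Q0990 x bdl and 10.42 ± 0.64 in Q0990 x Col-0 on day 3 (SD, n = 4 each). The order from the highest was thus Q0990 x Col-0 on day 3, Q0990 x Col-0 on day 6, Q0990 x bdl on day 3 and Q0990 x bdl on day 6. Within each cross the 2 days differed by less than the spread between arrays.

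The other 5 measured members lay in the middle of the distribution of all genes, at ranks 3123 to 13584 on day 6 and 4303 to 14797 on day 3. LBD4, a gene of the boundary between procambium and phloem, had log2 ratios of -0.29, -0.28, -0.22 and -0.23 on the day 6 arrays (mean -0.26 ± 0.035) and of -0.14, -0.12, -0.25 and -0.23 on the day 3 arrays (mean -0.18 ± 0.065; SD, n = 4 each). These ratios were small and negative on all 8 arrays. LBD3, a gene known to be induced by cytokinin, had negative ratios on 3 of 4 arrays of each day (mean -0.13 ± 0.14 on day 6 and -0.17 ± 0.14 on day 3).

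LBD18, which acts in lateral root formation downstream of auxin response factors, had small ratios of 0.10, 0.19, 0.10 and 0.03 on day 6, all above 0, and of 0.09, -0.22, -0.10 and -0.27 on day 3. LBD15, also known as ASL11, had ratios of -0.34, -0.24, -0.09 and 0.0029 on day 6 and of 0.08, 0.43, 0.17 and 0.09 on day 3. The LBD15 intensities were 65.5, 209, 301 and 402 in Q0990 x bdl and 95.6, 255, 324 and 397 in Q0990 x Col-0 on day 6. On day 3 they were 380, 427, 322 and 206 in Q0990 x bdl and 355, 309, 279 and 193 in Q0990 x Col-0. The ranges of the crosses overlapped on both days. For LBD15 the sign of the mean differed between the days (-0.17 ± 0.15 on day 6, 0.19 ± 0.16 on day 3), and day 6 minus day 3 the difference was -0.36 with a 95% interval from -0.61 to -0.11. For LBD18 the corresponding difference was 0.23, with an interval from 0.031 to 0.43. LBD1, whose poplar relative acts in secondary growth, had mean ratios of -0.086 ± 0.12 on day 6, when no signal in either cross exceeded the blank spots, and -0.064 ± 0.19 on day 3.

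**Figure D2:**
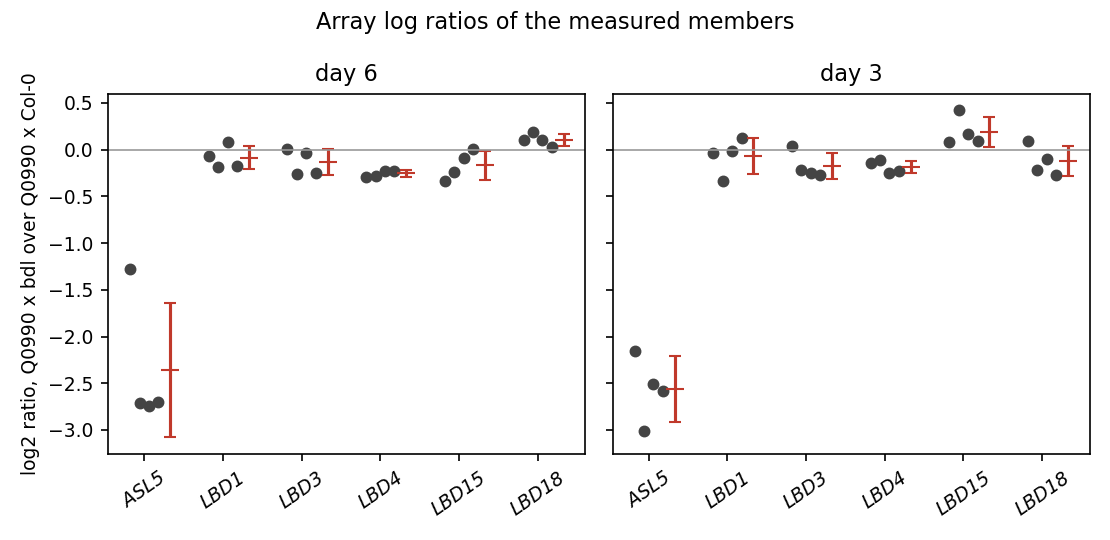
Normalised log2 ratio of Q0990 x bdl relative to Q0990 x Col-0 (vertical axis) for the 6 measured members on day 6 (left) and day 3 (right), with 1 grey point per array in replicate order and the mean with SD (n = 4) in red. ASL5 is the sole member below -1; the other 5 lie between -0.34 and 0.43.

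By the call rule applied to all genes, an adjusted p under 0.05, 2 of the 6 measured members (ASL5 and LBD4) fell among the genes called lower in Q0990 x bdl on day 6, where 35.6% of all genes tested were called, 19.4% lower and 16.2% higher. The same 2 of 6 were among those called lower on day 3, where 42.1% of all genes were called, 21.0% lower and 21.1% higher. The median log2 ratio of the 6 was -0.15 on day 6 and -0.15 on day 3, beside medians over all genes tested of -0.0021 and 0.0026. For the difference between the days, 1 of 6 (LBD15) fell among the called, where 41.2% of all genes did. These contrasts served to choose the members, so the counts are a description and nothing is read from them.

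**Figure D3:**
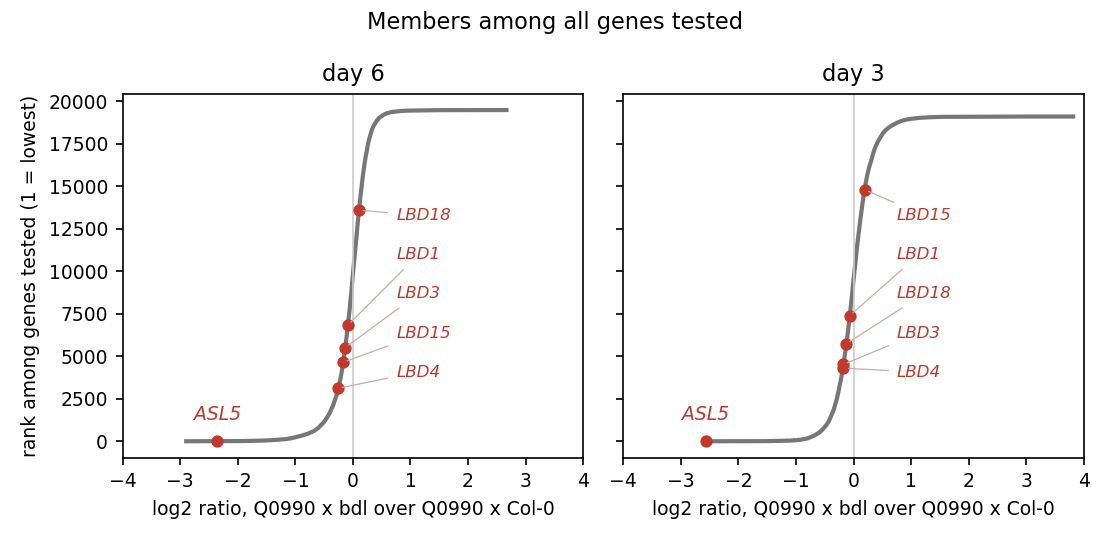
Rank of every gene tested (vertical axis, 1 = lowest) against its log2 ratio of Q0990 x bdl relative to Q0990 x Col-0 (horizontal axis) on day 6 (left, 19474 genes) and day 3 (right, 19095 genes). The 6 measured members are marked; ASL5 lies at ranks 5 and 1, and the other 5 lie in the steep middle of the curve, at ranks 3123 to 13584 on day 6 and 4303 to 14797 on day 3.

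LBD16 and LBD29, which act with LBD18 in lateral root initiation, were near the blank spots. LBD16 had a value above them on day 6 replicate 1 alone, at 103 in Q0990 x bdl and 174 in Q0990 x Col-0, and on the other 3 arrays it had 18.1 to 41.5 in Q0990 x bdl and 26.1 to 39.5 in Q0990 x Col-0. LBD29 was above the blank spots in 1 Q0990 x bdl signal of each day (109 on day 6, 31.7 on day 3) and in no Q0990 x Col-0 signal. LBD11, a gene of the vascular cambium, exceeded them in 1 signal, at 126 in Q0990 x bdl on day 6 replicate 2. The day 3 tables held no value for LBD11 and LBD16. A difference between the crosses was not detectable at these signals for any of the 3 genes.

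The change from day to day, day 6 against day 3, is another contrast than the one between the crosses for which ASL5 was picked. It was tested in each cross. The members were chosen with earlier results of both days known. LBD4 and LBD3 were higher on day 6 in both crosses, and the other 4 measured members did not pass the test. LBD4 had the clearest change. On day 6 its intensities were 6456, 1351, 2987 and 2698 in Q0990 x bdl and 7672, 1638, 3435 and 3152 in Q0990 x Col-0. On day 3 they were 449, 453, 776 and 559 in Q0990 x bdl and 499, 500.4, 929 and 669 in Q0990 x Col-0. The lowest day 6 value in either cross lay above every day 3 value.

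In limma's separate-channel model, the LBD4 level was 5.51-fold higher on day 6 than on day 3 in Q0990 x bdl (log2 2.46, 95% interval 1.98 to 2.94, adjusted p = 4.97e-07) and 5.78-fold higher in Q0990 x Col-0 (log2 2.53, interval 2.05 to 3.01, adjusted p = 4.82e-07; 4 arrays per day). The dimmer LBD3 had intensities of 169.9, 72.8, 122 and 90.8 in Q0990 x bdl and 168, 97.0, 126 and 117 in Q0990 x Col-0 on day 6. On day 3 it had 10.5, 19.9, 54.7 and 46.6 in Q0990 x bdl and 10.7, 25.7, 72.0 and 67.2 in Q0990 x Col-0. In each cross its day 6 values all lay above its day 3 values. LBD3 was 1.88-fold higher on day 6 in Q0990 x bdl (log2 0.91, interval 0.33 to 1.503, adjusted p = 0.0191) and 1.83-fold higher in Q0990 x Col-0 (log2 0.87, interval 0.28 to 1.46, adjusted p = 0.0289). LBD3 exceeded the blank spots on 2 of 4 arrays in Q0990 x bdl and 1 of 4 in Q0990 x Col-0 on day 6. On day 3 it did so on 1 of 4 in each cross. The LBD3 call in Q0990 x bdl was lost without day 3 replicate 3 (log2 0.96, adjusted p = 0.0518) or day 6 replicate 1 (0.81, 0.0509). In Q0990 x Col-0 it was lost without day 3 replicate 1 (log2 0.66, adjusted p = 0.0972) or 3 (0.93, 0.0713), and without day 6 replicate 1 (0.81, 0.0592), 3 (0.84, 0.0516) or 4 (0.94, 0.0510).

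Of the 6 measured members, 2 were thus called higher on day 6 in Q0990 x bdl, where 31.8% of all genes were called, 16.6% higher and 15.2% lower, and 2 in Q0990 x Col-0, where 26.6% were called, 14.3% higher and 12.4% lower. In limma, 0 members were called lower in either cross, and 0 were lower at an unadjusted p under 0.05. The median log2 change of the 6 was 0.29 in Q0990 x bdl and 0.22 in Q0990 x Col-0, beside 0.082 and 0.093 over all genes tested. The crosses share their arrays, so the 2 contrasts are not independent of each other.

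ASL5 did not change detectably between the days (log2 -0.13, interval -1.83 to 1.57, adjusted p = 0.921 in Q0990 x bdl; log2 -0.33, interval -2.03 to 1.36, adjusted p = 0.794 in Q0990 x Col-0). Its wide interval goes with day 6 replicate 1, whose normalised Q0990 x Col-0 signal was 8.02, against 10.60 to 11.07 on the other 3 arrays of day 6. Without that array the values were 0.19 in Q0990 x bdl (adjusted p = 0.783) and 0.35 in Q0990 x Col-0 (adjusted p = 0.603). LBD15 had log2 changes of -0.40 in Q0990 x bdl (adjusted p = 0.5005) and -0.041 in Q0990 x Col-0 (adjusted p = 0.958), and it too was lowest on day 6 replicate 1.

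LBD18 had log2 changes of 0.70 in Q0990 x bdl (adjusted p = 0.152) and 0.48 in Q0990 x Col-0 (adjusted p = 0.357). Day 6 replicate 3 had the lowest LBD18 intensity of its day, at 301 in Q0990 x bdl and 277 in Q0990 x Col-0, while the other 3 arrays had 1008 to 1495 in Q0990 x bdl and 972 to 1369 in Q0990 x Col-0. Without it the changes passed the test, at 1.10 in Q0990 x bdl (adjusted p = 0.0122) and 0.89 in Q0990 x Col-0 (adjusted p = 0.0432). LBD1 did not pass the test in Q0990 x bdl (adjusted p = 0.125) or in Q0990 x Col-0 (adjusted p = 0.150). It exceeded the blank spots on 0 of 4 arrays of day 6 and 3 of 4 of day 3 in each cross, and its day 3 signal did not exceed the day 6 floor of measured signals, so no fold is given.

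The day 6 tables list the reporters in another order than the day 3 tables, with 42.1% of rows alike, so array layout and day cannot be told apart in any comparison of the days. The marker sums given above also moved between the days, and their part in the changes of LBD4 and LBD3 was not tested.

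**Figure D4:**
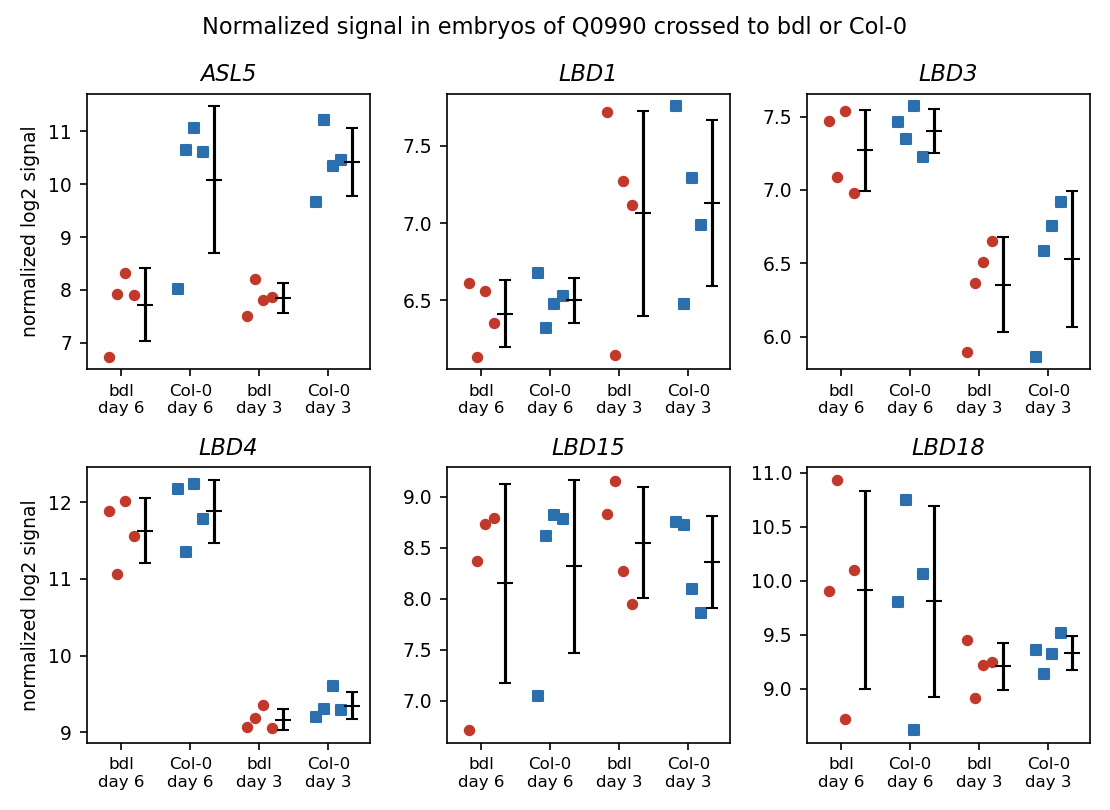
Normalised log2 signal (vertical axis) of the 6 measured members in Q0990 x bdl (circles) and Q0990 x Col-0 (squares) on day 6 and day 3, with 1 point per array in replicate order and the mean with SD (n = 4) in black. LBD4 is higher on day 6 than on day 3 in both crosses with no overlap, and ASL5 separates the crosses within each day.

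The rest of the family gave a mixed picture. Of 34 further LBD genes, 33 were on the array and 25 passed the filter, 24 of them tested on each day. On day 6, 4 were higher in Q0990 x bdl (AS2, LBD5, LBD40, LBD42) and 5 lower (LBD9, LBD19, LBD22, LBD31, LBD37). On day 3, 8 were higher (LBD5, LBD8, LBD10, LBD20, JLO, LBD35, LBD37, LBD38) and 3 lower (LBD31, LBD40, LBD42). The median log2 ratio of these 24 was -0.041 on day 6 and 0.095 on day 3, beside the medians over all genes given above. Their counts stand beside 16.2% of all genes called higher and 19.4% lower on day 6, and 21.1% higher and 21.0% lower on day 3. The largest fall among them, -0.81 for LBD40 on day 3, was smaller than the -2.56 of ASL5 on that day.

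**Figure D5:**
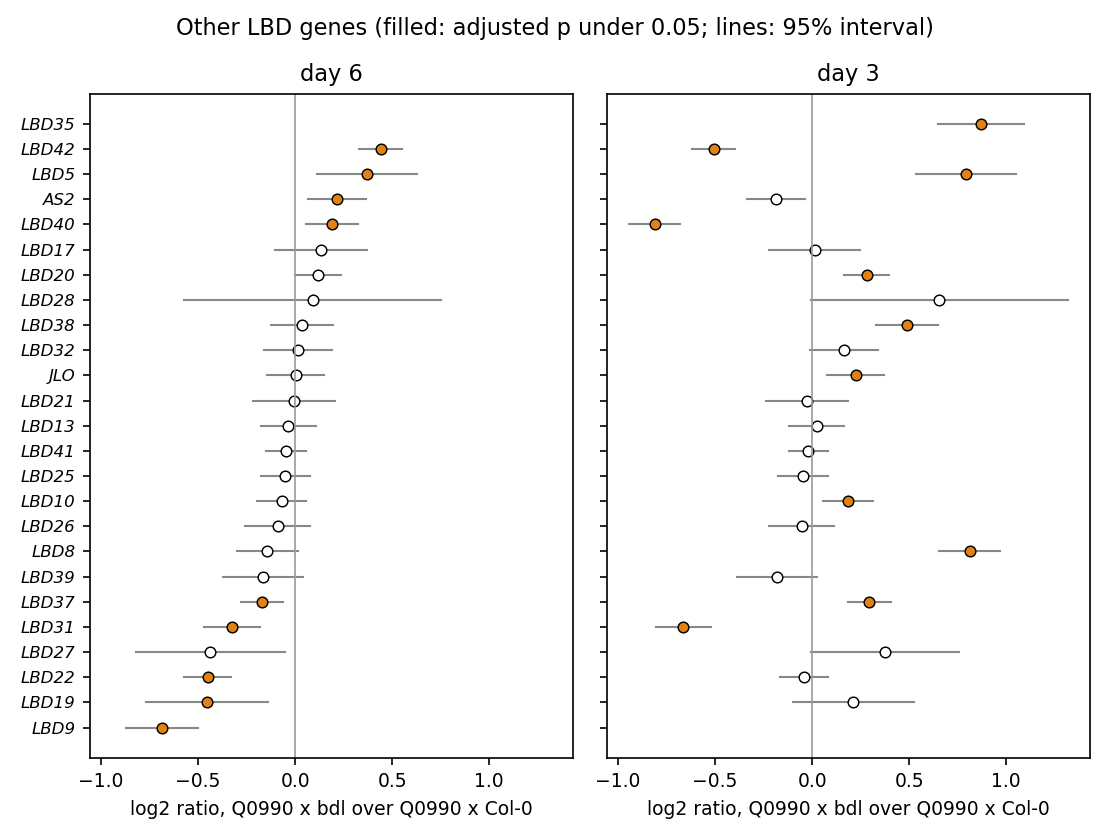
Log2 ratio of Q0990 x bdl relative to Q0990 x Col-0 (horizontal axis) of the 25 further LBD genes that passed the filter, on day 6 (left) and day 3 (right), with the 95% interval from the fit as a line. Filled points passed the test; LBD40 and LBD42 stand left of 0 on day 3 and right of 0 on day 6.

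Among the 6 class II genes, LBD42 and LBD40 had the widest gap between the days. The log2 ratio of LBD42 was 0.37 to 0.53 on the 4 arrays of day 6 and -0.55 to -0.42 on those of day 3 (difference 0.95, adjusted p = 4.99e-05). That of LBD40 was 0.13 to 0.27 on day 6 and -0.96 to -0.69 on day 3 (difference 1.00, adjusted p = 8.08e-05). The ratios of both genes thus had opposite signs on all arrays of the 2 days. LBD37 and LBD38, which repress anthocyanin and nitrogen-response genes, went the other way. LBD37 had -0.17 on day 6 and 0.30 on day 3 (difference -0.47, adjusted p = 0.00110), and LBD38 had 0.036 on day 6 (adjusted p = 0.724) and 0.49 on day 3 (difference -0.46, adjusted p = 0.00706). On day 6 LBD38 exceeded the blank spots on 2 of 4 arrays in Q0990 x bdl and on 0 of 4 in Q0990 x Col-0. Its day 6 ratio and the difference rest on signals near background. LBD37 exceeded the blank spots on 2 of 4 arrays of day 6 in each cross. LBD39 and LBD41 did not pass the test on either day (-0.17 and -0.047 on day 6, -0.18 and -0.019 on day 3).

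Between the days, 2 of 6 class II genes were higher and 2 lower on day 6 in Q0990 x bdl, where 16.6% of all genes were higher and 15.2% lower. In Q0990 x Col-0, 1 was higher and 1 lower, where 14.3% were higher and 12.4% lower. LBD42 was 9.78-fold higher on day 6 than on day 3 in Q0990 x bdl (adjusted p = 3.30e-08) and 5.07-fold higher in Q0990 x Col-0 (adjusted p = 2.57e-06). LBD38 was 7.53-fold lower on day 6 in Q0990 x bdl (adjusted p = 9.64e-07) and at least 3.50-fold lower in Q0990 x Col-0, where none of the day 6 arrays had it above the blank spots (adjusted p = 9.03e-06). For such a bound, the mean of the brighter day is set against a floor on each array of the dimmer day, which is the weakest signal there that still exceeds the blanks or, if stronger, the signal of LBD38 itself; the bounds of LBD5 and LBD8 were made alike. LBD40 was 2.46-fold higher on day 6 in Q0990 x bdl (adjusted p = 0.0104), a call lost without day 6 replicate 4 (log2 1.13, adjusted p = 0.0510). In that cross LBD37 was 2.32-fold lower (adjusted p = 0.0245), with 2 of 4 day 6 signals above the blank spots.

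AS2, which acts with the MYB protein AS1 in leaf polarity, had log2 ratios of 0.27, 0.28, 0.03 and 0.28 on the arrays of day 6 (adjusted p = 0.0337) and of -0.17, -0.23, -0.02 and -0.32 on those of day 3 (adjusted p = 0.0507). All 4 arrays of day 6 were thus above 0 and all 4 of day 3 below it, and the difference of 0.40 passed the test (adjusted p = 0.00943). AS2 was 3.13-fold higher on day 6 than on day 3 in Q0990 x bdl (adjusted p = 0.000126) and 2.37-fold higher in Q0990 x Col-0 (adjusted p = 0.00187). JLO (LBD30), which acts at organ boundaries and in the embryo, had a log2 ratio of 0.0032 on day 6 and 0.22 on day 3 (adjusted p = 0.0232). It was 2.55-fold higher on day 6 in Q0990 x bdl (adjusted p = 0.00115) and 2.97-fold higher in Q0990 x Col-0 (adjusted p = 0.000428).

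LBD31, the neighbour of JLO in the reference gene order, was lower in Q0990 x bdl on all 8 arrays, by -0.43 to -0.23 on day 6 (adjusted p = 0.00487) and -0.84 to -0.55 on day 3 (adjusted p = 0.000115). LBD19, the neighbour of LBD18, had a log2 ratio of -0.45 on day 6 (adjusted p = 0.0320) and 0.21 on day 3 (adjusted p = 0.248). LBD16 has LBD17 as its neighbour, and LBD17 did not pass the test on either day (0.13 on day 6, 0.013 on day 3).

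LBD5 and LBD8 were bright on day 3 and dim on day 6. LBD8 had intensities of 1470 to 2693 in Q0990 x bdl and 753 to 1601 in Q0990 x Col-0 on day 3, with a log2 ratio of 0.81 (adjusted p = 7.18e-05), and on day 6 none of its signals exceeded the blank spots. It was at least 12.9-fold lower on day 6 in Q0990 x bdl (adjusted p = 4.18e-10) and at least 5.05-fold lower in Q0990 x Col-0 (adjusted p = 7.42e-09). LBD5 had intensities of 1070 to 1541 in Q0990 x bdl and 621 to 827 in Q0990 x Col-0 on day 3 (log2 ratio 0.79, adjusted p = 0.000837), and was at least 8.65-fold lower on day 6 in Q0990 x bdl (adjusted p = 6.87e-07) and at least 3.43-fold lower in Q0990 x Col-0 (adjusted p = 3.45e-06). Its day 6 ratio passed the test with neither cross above the blank spots, so no fold is given for it. LBD5 and LBD8 passed the filter through their day 3 signals alone, which favours a lower level on day 6 before any test. The endosperm and seed coat marker sums were higher on day 3 as well, and higher in Q0990 x bdl on that day; their part in the LBD5 and LBD8 values was not tested.

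The remaining calls between the crosses came from 5 genes. LBD35 had 0.87 on day 3 (adjusted p = 0.00111) and no value on day 6. On day 3, LBD20 was called with 0.28 (adjusted p = 0.00288) and LBD10 with 0.18 (adjusted p = 0.0279). On day 6, LBD22 was called with -0.45 (adjusted p = 0.000509) and LBD9, which had no value on day 3, with -0.69 (adjusted p = 0.00184). LBD22 then exceeded the blank spots on 3 of 4 arrays in Q0990 x bdl and on 2 of 4 in Q0990 x Col-0. LBD10 and LBD27 act in pollen development in Arabidopsis.

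Several of these calls were lost when a single array was left out. Leaving out day 6 replicate 1, 2, 3 or 4 left 1, 2, 2 or 1 higher and 4, 3, 4 or 3 lower calls on day 6, in place of 4 and 5. The day 6 calls of LBD37 and LBD40 were lost without any 1 of the 4 arrays (adjusted p up to 0.128 and 0.156), that of AS2 without replicate 1, 2 or 4 (up to 0.143), that of LBD5 without replicate 1, 3 or 4 (up to 0.160), and that of LBD19 without replicate 2 (log2 -0.29) or 4 (-0.33). On day 3, JLO lost its call without replicate 1 (log2 0.18) or 4 (0.16) and LBD10 without replicate 1, 2 or 3 (up to 0.119). The day 3 calls of LBD5, LBD8, LBD20, LBD31, LBD35, LBD37, LBD38, LBD40 and LBD42 held with each array left out, and so did the day 6 calls of LBD9, LBD22, LBD31 and LBD42.

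Of 23 further LBD genes tested on both days, the ratio differed between the days for 11, higher on day 6 for 4 (AS2, LBD31, LBD40, LBD42) and lower for 7 (LBD8, LBD10, LBD19, LBD22, LBD27, LBD37, LBD38), where 19.5% of all genes were higher and 21.8% lower. The day 6 ratio of LBD8 comes from signals below the blank spots in both crosses, so the size of its difference is not measured. On day 6 LBD27 exceeded the blank spots on 1 of 4 arrays in each cross. LBD19 did so on 2 of 4 in Q0990 x bdl and 1 of 4 in Q0990 x Col-0. Of these 11, LBD10, LBD19, LBD27 and LBD31 lost the call when single arrays were left out (adjusted p up to 0.0923, 0.0707, 0.0643 and 0.0523). Between the days, day 6 against day 3, 5 of 23 were higher in Q0990 x bdl (AS2, LBD10, JLO, LBD40, LBD42) and 6 lower (LBD5, LBD8, LBD20, LBD27, LBD37, LBD38), where 16.6% of all genes were higher and 15.2% lower. In Q0990 x Col-0, 5 were higher (AS2, LBD10, LBD22, JLO, LBD42) and 4 lower (LBD5, LBD8, LBD20, LBD38), where 14.3% of all genes were higher and 12.4% lower. Leaving out single arrays ended the calls of LBD20 (adjusted p up to 0.0953) and LBD22 (up to 0.0866) in Q0990 x Col-0 and those of LBD27 (up to 0.1005) and LBD37 (up to 0.0997) in Q0990 x bdl.

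The auxin response genes thought to act upstream were also measured. Of 9 tested, 1 was higher and 2 lower in Q0990 x bdl on day 6, and 2 were higher and 3 lower on day 3, beside the shares over all genes given above. These 9 include BDL itself, which was the 1 higher on day 6 and, with IAA3, made up the 2 higher on day 3. MONOPTEROS had a log2 ratio of -0.31 on day 6 (adjusted p = 0.0239) and -0.48 on day 3 (adjusted p = 0.00297), and its day 6 call was lost without replicate 2, 3 or 4 of that day (adjusted p up to 0.106). LAX3, an auxin influx carrier that LBD29 regulates in lateral roots, was at -0.60 on day 6 (adjusted p = 0.000405) and -0.032 on day 3 (adjusted p = 0.739). IAA3 was higher on day 3 (0.88, adjusted p = 0.00102), while ARF19, which activates LBD16 and LBD29 in roots, and IAA18 were lower then (-0.34, adjusted p = 0.00854; -0.26, adjusted p = 0.00628). ARF7 and GATA23 did not pass the test on either day (-0.088 and 0.0041 on day 6, 0.083 and -0.056 on day 3).

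Of the 4 measured vascular genes linked to LBD4, 1 was higher in Q0990 x bdl on day 6, where 16.2% of all genes were, and 2 were lower on day 3, where 21.0% of all genes were. TMO6, a DOF factor that acts upstream of LBD4, had a log2 ratio of -0.11 on day 6 (adjusted p = 0.233) and -0.29 on day 3 (adjusted p = 0.00727). LHW, the partner of TMO5 in vascular cell division, had 0.16 on day 6 (adjusted p = 0.0439) and -0.53 on day 3 (adjusted p = 0.000158; difference 0.70, adjusted p = 0.000287). The day 6 call of LHW was lost without replicate 1, 3 or 4 of day 6 or any 1 array of day 3 (adjusted p up to 0.190). TMO5 was 4.90-fold higher on day 6 than on day 3 in Q0990 x bdl (adjusted p = 9.78e-06). In Q0990 x Col-0 it was 4.19-fold higher (adjusted p = 4.03e-05), next to the rise of LBD4. TMO6 was higher in Q0990 x bdl alone (log2 0.82, adjusted p = 0.0384), a call lost under 8 of 17 alternatives. LHW and WOX14 did not pass the test in either cross (WOX14 log2 -0.52 in Q0990 x bdl, -0.72 in Q0990 x Col-0). On day 6 WOX14 exceeded the blank spots on 2 of 4 arrays in Q0990 x bdl and on 0 of 4 in Q0990 x Col-0. Of the 4 genes, 2 were thus higher in Q0990 x bdl and 1 in Q0990 x Col-0, beside 16.6% and 14.3% of all genes.

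Among partners and targets of LBD proteins, KNAT1 and KNAT2, KNOX homeobox genes that AS1 and AS2 repress in leaves, had the lowest ratios. KNAT1 had intensities of 1463, 170, 560 and 391.8 in Q0990 x bdl and 5300, 559, 2093 and 1373 in Q0990 x Col-0 on day 6, and no value on day 3. KNAT2 had 563, 104, 106 and 205 in Q0990 x bdl and 2631, 404, 329 and 788 in Q0990 x Col-0 on day 6, and 252, 130, 392.3 and 405 in Q0990 x bdl and 487, 256, 834 and 816 in Q0990 x Col-0 on day 3. On each array with values, both genes were lower in Q0990 x bdl.

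KNAT1 was 3.29-fold lower on day 6 (log2 -1.72, adjusted p = 0.000123). KNAT2 was 3.21-fold lower on day 6 (log2 -1.68, adjusted p = 4.54e-05) and 1.84-fold lower on day 3 (log2 -0.88, adjusted p = 0.000678). KNAT6, the mean of 3 reporters, had -0.26 on day 6 (adjusted p = 0.0115) and -0.34 on day 3 (adjusted p = 0.00241), but its brightest reporter alone gave -0.038 on day 6 (adjusted p = 0.654) and -0.071 on day 3 (adjusted p = 0.376). The day 6 call of KNAT6 was also lost without replicate 1 (log2 -0.22, adjusted p = 0.0604) or 2 (-0.24, 0.0544) of that day. AS1 was higher in Q0990 x bdl on day 6 (0.43, adjusted p = 0.00121) and lower on day 3 (-0.21, adjusted p = 0.0250), the day 3 call being lost without replicate 1, 3 or 4 (adjusted p up to 0.113). In all, 1 of 9 tested partners and targets was higher and 4 lower on day 6, beside 16.2% and 19.4% of all genes. On day 3, 6 of 8 were lower, beside 21.0% of all genes. EXPA14, a target of LBD18 in roots, was at -0.56 on day 6 (adjusted p = 0.00459). On that day EXPA14 exceeded the blank spots on 1 of 4 arrays in Q0990 x bdl and 2 of 4 in Q0990 x Col-0. Its ratio rests on signals near background. The other day 3 calls were BAS1, a brassinosteroid-inactivating enzyme that LOB induces at boundaries, at -0.70 (adjusted p = 0.000365), the cyclin gene CYCB1;1 at -0.41 (adjusted p = 0.000602) and E2FA at -0.33 (adjusted p = 0.00776).

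The genes whose pattern over the 16 normalised log2 signals was most like that of ASL5 were ranked by Pearson's r among 9855 genes above the blank spots in at least 8 signals and with an SD of at least 0.5. They were ILR2 (AT3G18485, r = 0.850), LOG4 (AT3G53450, r = 0.833), the auxin efflux carrier gene PIN4 (AT2G01420, r = 0.833), AT1G04130 (r = 0.813) and AHG1 (AT5G51760, r = 0.810). The 16 signals come from 8 arrays whose channels share spots, so these correlations are descriptions. Of the 5, LOG4, which encodes an enzyme of cytokinin activation, had log2 ratios of -0.95 on day 6 and -0.92 on day 3, and PIN4 had -0.61 on day 6 and -0.85 on day 3. ILR2 had -1.09 on day 6 and -0.38 on day 3, AT1G04130 had -1.58 and -0.38, and AHG1 had -0.62 and -0.47. Being picked for a pattern like that of ASL5 already favours a lower ratio in Q0990 x bdl. The other measured members had r with ASL5 between -0.12 for LBD18 and 0.37 for LBD15.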

How the data were processed

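The series holds 8 two-colour arrays, 4 per day, each with Q0990 x bdl RNA in one channel and Q0990 x Col-0 RNA in the other. Per the labels' protocols, amplified RNA carried Cy3 or Cy5 dye. For each spot the authors deposited an intensity in either channel, with no flags and no background column. The scanner output was lost, per the series text. Image software, background method and scaling are not given in the sources used here. Of the deposited intensities under 50, 88.8% to 98.5% per channel lay within 0.02 of a whole number when squared, as the geometric mean of a pair of whole-number readings would; which readings is not given. The authors' deposited series table holds log2 ratios, at least 99.9% of them equal to a spot's ratio; its rows carry no names, so it was not used further.

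An offset of 50 was added, log2 ratios were normalised by loess within arrays (span 0.3, 4 iterations, control spots without weight), and spots and reporters of a gene were averaged. A reporter was kept if above the 95th percentile of the blank spots in at least 4 of 16 signals, which left 22012 of 27462 reporters and 19729 of 24648 genes. The RefSeq gene table of TAIR10.1 supplied symbols and held 99.4% of the kept gene codes. limma 3.58.1 in R 4.3.3 fitted all 8 arrays with a day 6, a day 3 and a dye term (lmFit, eBayes). Day 6 against day 3 used the separate-channel model (Aquantile, statmod 1.5.0, intraspot correlation 0.946). P-values were adjusted by Benjamini-Hochberg across every gene in the comparison, with calls made under 0.05. The number of arrays, 4 per day, limits the precision of every value. The series text calls them biological replicates. The fits were tested on simulated data.

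The 9 members, the gene lists and the tests were chosen with earlier results of these data known. Named were all members, every further LBD gene that passed a test, at most 8 genes of each list on upstream auxin response, vascular development and partners or targets, those past the test with the largest difference first, and the 5 genes most like ASL5. LBD17, LBD39 and LBD41 fall outside that rule and were added after their values were seen. The labels put Q0990 x bdl in Cy5 on replicates 1 and 2 and in Cy3 on replicates 3 and 4 of each day. The arrays' deviations from the day means instead set day 6 replicates 2 and 4 with day 3 replicates 1 and 3, against day 6 replicates 1 and 3 with day 3 replicates 2 and 4. The dye term follows the labels, and the other orientation was tried. Same-numbered arrays of the 2 days had deviations correlated at r from -0.26 to -0.15. The grouping above sets the arrays of each number on opposite sides, so these values cannot decide whether replicate numbers pair the days. Alternatives were another offset, no loess, other filters, the brightest reporter, no dye term, a replicate block, each day alone, quantile normalisation and each array left out. No sequences are printed, since no sequence table was used here.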

Additional observations from a re-analysis of the deposited data

Results flagged for a closer look

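In 8 of 101 groups of 4 arrays examined (7.92%), the highest or lowest array lay apart from the other 3; chance gives this in about 1 in 20 groups (5%). Day 6 replicate 1 was the array in 5 of the 8. On it ASL5 had a log2 ratio of -1.28 (the others -2.74 to -2.70) and a normalised Q0990 x Col-0 signal of 8.02 (the others 10.60 to 11.07), LBD15 had a Q0990 x Col-0 signal of 7.05 (the others 8.61 to 8.82), LBD22 a ratio of -0.52 (the others -0.43 to -0.42) and LBD27 a ratio of -1.09 (the others -0.29 to -0.12). The other 3 were the AS2 ratio of 0.034 on day 6 replicate 3, the LBD22 ratio of 0.15 on day 3 replicate 3 and the LBD42 ratio of -0.42 on day 3 replicate 2.

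The ratio of Q0990 x bdl relative to Q0990 x Col-0 differed between day 6 and day 3 by limma's test of the difference for 22 named genes that are not among the 9. Day 6 minus day 3, the log2 difference was positive for LBD40 (1.00), LBD42 (0.95), AS2 (0.40) and LBD31 (0.34). It was negative for LBD8 (-0.96), LBD27 (-0.81), LBD19 (-0.67), LBD37 (-0.47), LBD38 (-0.46), LBD22 (-0.41) and LBD10 (-0.25). On day 6 no LBD8 signal, and no Q0990 x Col-0 signal of LBD38, exceeded the blank spots, so the sizes of these 2 differences rest on background. Among the other lists it was positive for LHW (0.70), AS1 (0.64), BAS1 (0.58), CYCB1;1 (0.55), E2FA (0.41), IAA18 (0.38) and TMO5 (0.23), and negative for IAA3 (-1.12), KNAT2 (-0.80), LAX3 (-0.57) and EXPA14 (-0.56). On day 6 IAA3 exceeded the blank spots on 2 of 4 arrays in Q0990 x bdl and on 0 of 4 in Q0990 x Col-0. On day 3 EXPA14 did so on 1 of 4 in Q0990 x bdl and on 0 of 4 in Q0990 x Col-0. The sizes of the IAA3 and EXPA14 differences thus also rest on signals near background. The TMO5 call was lost without day 3 replicate 2, 3 or 4 or day 6 replicate 2, 3 or 4 (adjusted p up to 0.117).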

How the results depend on the processing

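No called value changed direction under any alternative run. ASL5 kept a log2 ratio of -2.72 to -2.15 on day 6 and -2.75 to -2.32 on day 3. Of the counts of genes called, with 6939 on day 6, 8033 on day 3, 7768 for the difference between the days, 5987 between the days in Q0990 x bdl and 5017 in Q0990 x Col-0, keeping a reporter if all 16 of its signals exceeded the blank spots, which tested fewer genes, gave 5053 on day 3, 5142 for the difference, 3006 between the days in Q0990 x bdl and 2344 in Q0990 x Col-0. Day 3 fitted alone, with fewer arrays, gave 5244. Leaving out 1 array at a time gave 4506 to 7064 on day 6, 6492 to 7890 on day 3, 6178 to 7444 for the difference, 4505 to 5901 between the days in Q0990 x bdl and 3387 to 5049 in Q0990 x Col-0. The lowest day 6 counts came without day 6 replicate 3 (4506) or 1 (4544). With no filter on dim reporters, 73.8% of the calls between the days in Q0990 x bdl and 78.0% in Q0990 x Col-0 were higher on day 6, beside 52.1% in Q0990 x bdl and 53.6% in Q0990 x Col-0 with it, and the median of all genes moved to 0.42 in Q0990 x bdl and 0.43 in Q0990 x Col-0; the cause was not tested. Whether the replicate numbers pair the arrays of the 2 days could not be decided. With the replicate block the counts were 5283 on day 6, 6704 on day 3, 6444 for the difference, 7386 between the days in Q0990 x bdl and 6549 in Q0990 x Col-0. Of the single-gene results tested, 8 lost their call with the block, namely AS2, LBD37, LBD40 and LHW on day 6, LBD10 and AS1 on day 3 and the LBD10 and TMO5 differences, and 6 gained one. The file columns name no dye, so a fit with a dye orientation taken from them was not run. The orientation read from the values, added after seeing the data, gave 9138 on day 6, 9849 on day 3 and 9687 for the difference, and ended the LBD3 call in Q0990 x Col-0 (adjusted p = 0.0539). For single genes with a test, 2553 values under the alternatives kept direction and side of the threshold, 136 no longer passed, 46 newly passed, and 38 that were never past the threshold turned sign. Of the members' values between the crosses, which have no test, 281 kept their sign and 7 turned it, all by less than 1 SD between arrays. Signals near the blank spots limit what can be said of LBD1, LBD3, LBD11, LBD16 and LBD29.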
